A study of Macaca fascicularis with 8 samples.

Results

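The 10 genes described here are 3 enzymes of serine synthesis (PHGDH, PSAT1 and PSPH), 2 enzymes of the mitochondrial folate pathway that uses serine (SHMT2 and MTHFD2), asparagine synthetase (ASNS), the transcription factor ATF4, and 3 of its stress-response targets (TRIB3, DDIT3 and CHAC1). They were listed by name, with earlier results of these data known, and are 10 of the 33121 genes in the deposited table. Of the 10, 5 carried their symbol in the table and 5 were paired with a row by the name of the best protein match at an identity of at least 85%. The comparison was between dome-shaped and primed embryonic stem cells (ESCs) of the cynomolgus monkey, Macaca fascicularis, with 4 polyadenylated RNA libraries in each group.

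Dome-shaped ESCs were grown in NHSMV medium, a knockout DMEM base with AlbuMAXI, N2 supplement, insulin, LIF, basic FGF and TGF-β1. It also held PD0325901 (a MEK inhibitor), CHIR99021 (a GSK3 inhibitor), SB202190 and SB203580 (p38 inhibitors), SP600125 (a JNK inhibitor), vitamin C, glutamine, nonessential amino acids and β-mercaptoethanol. Primed ESCs formed flat colonies in CESM, a mix of PSGro medium with a standard monkey ESC medium whose composition the labels do not give. The labels rate single-cell passage as strong for dome-shaped and weak for primed ESCs. Medium, colony shape and passage differed together between the groups and cannot be told apart. The dome-shaped libraries, replicates 1 to 4, are titled CES1_P15N, CES1_P26N, CES_2-N and CES3_12N, and the primed ones CES_1Pr, CES_2Pr, CES_3Pr and CES3_12P. Nothing in the labels says that the libraries came from separate cultures, so p-values measure only the spread between these libraries.

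PHGDH oxidises the glycolytic intermediate 3-phosphoglycerate, PSAT1 adds the amino group and PSPH removes the phosphate to give serine. Cells draw on serine for glycine, for one-carbon units on folate and for nucleotide synthesis. ATF4 is made when the translation factor eIF2α is phosphorylated, as happens when amino acids run short or when misfolded protein builds up in the endoplasmic reticulum (ER). Since ATF4 is controlled largely at translation, its mRNA is not a measure of its protein. Its known targets include the enzymes named here as well as amino acid transporters, tRNA synthetases and stress regulators.

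Values are RPKM, which scale reads by gene length and library depth. The RPKM steps implied 14401400 to 17676400 reads per dome-shaped library and 16358200 to 18078000 per primed library. The 15597 genes that reached 1 RPKM in 4 or more of the 8 libraries were tested with limma on log2(RPKM + 1), with p-values adjusted over all of them and a threshold of 0.05, and "called" means past it. Of 10 pluripotency markers, 9 were found and all were tested. Their summed level was 1936 to 2954 RPKM in dome-shaped libraries and 2916 to 3546 RPKM in primed libraries, with 5 called lower and none higher by limma (7 at an unadjusted p under 0.05). Dome-shaped replicate 4, at 2954 RPKM, stood apart from the other dome-shaped libraries (1936 to 2020 RPKM) and inside the primed range. Results of the members that change without it are therefore given both ways, while the marker calls are given only with it included. POU5F1 is not analysed here. Summed markers of fibroblasts lay at 112 to 286 RPKM in dome-shaped and 111 to 345 RPKM in primed libraries, of neural progenitors at 240 to 360 and 209 to 427 RPKM, of endoderm at 10.6 to 82.0 and 60.1 to 115 RPKM, of trophoblast at 12 to 19.1 and 28.5 to 115 RPKM, and of mesoderm at 10.9 to 57.1 and 18.9 to 78.6 RPKM, dome-shaped first in each pair. Of the tested markers in these 5 lists, 1 of 6, 0 of 3, 2 of 7, 2 of 5 and 0 of 4 were called lower and only FABP7, of the neural list, was called higher. Among all genes tested, limma called 6.38% higher and 7.96% lower. At an unadjusted p under 0.05, 16.2% were higher and 15.4% lower. In whole cultures, fewer cells of a type and less RNA per cell cannot be told apart.

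Dome-shaped ESCs had more SHMT2 and PSAT1 mRNA than primed ESCs, 2.27-fold and 2.61-fold by group means. The other 7 members that could be tested were not called. Thus 2 of 9 tested members were called higher and none lower, where limma called 6.38% of all genes tested higher and 7.96% lower. At an unadjusted p under 0.05 there were 4 members, all higher, where 16.2% of all genes tested were higher and 15.4% lower. Without dome-shaped replicate 4, SHMT2 was the 1 member called, while the calls over all genes tested were 8.26% higher and 9.24% lower. The median log2 fold change of the 9 was 0.85, against 0.03 over all genes tested; given how the members were chosen, these counts describe them and test nothing. The groups did not overlap for SHMT2, PSAT1 and ATF4, with dome-shaped libraries higher in each, as for 11.5% of all genes tested. No member had all dome-shaped libraries below all primed libraries, as 10.7% of the genes tested did. The plot of the members by library shows that the dome-shaped libraries were far from uniform, with replicates 1 and 4 above replicates 2 and 3 for each of the 9.

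**Figure D1:**
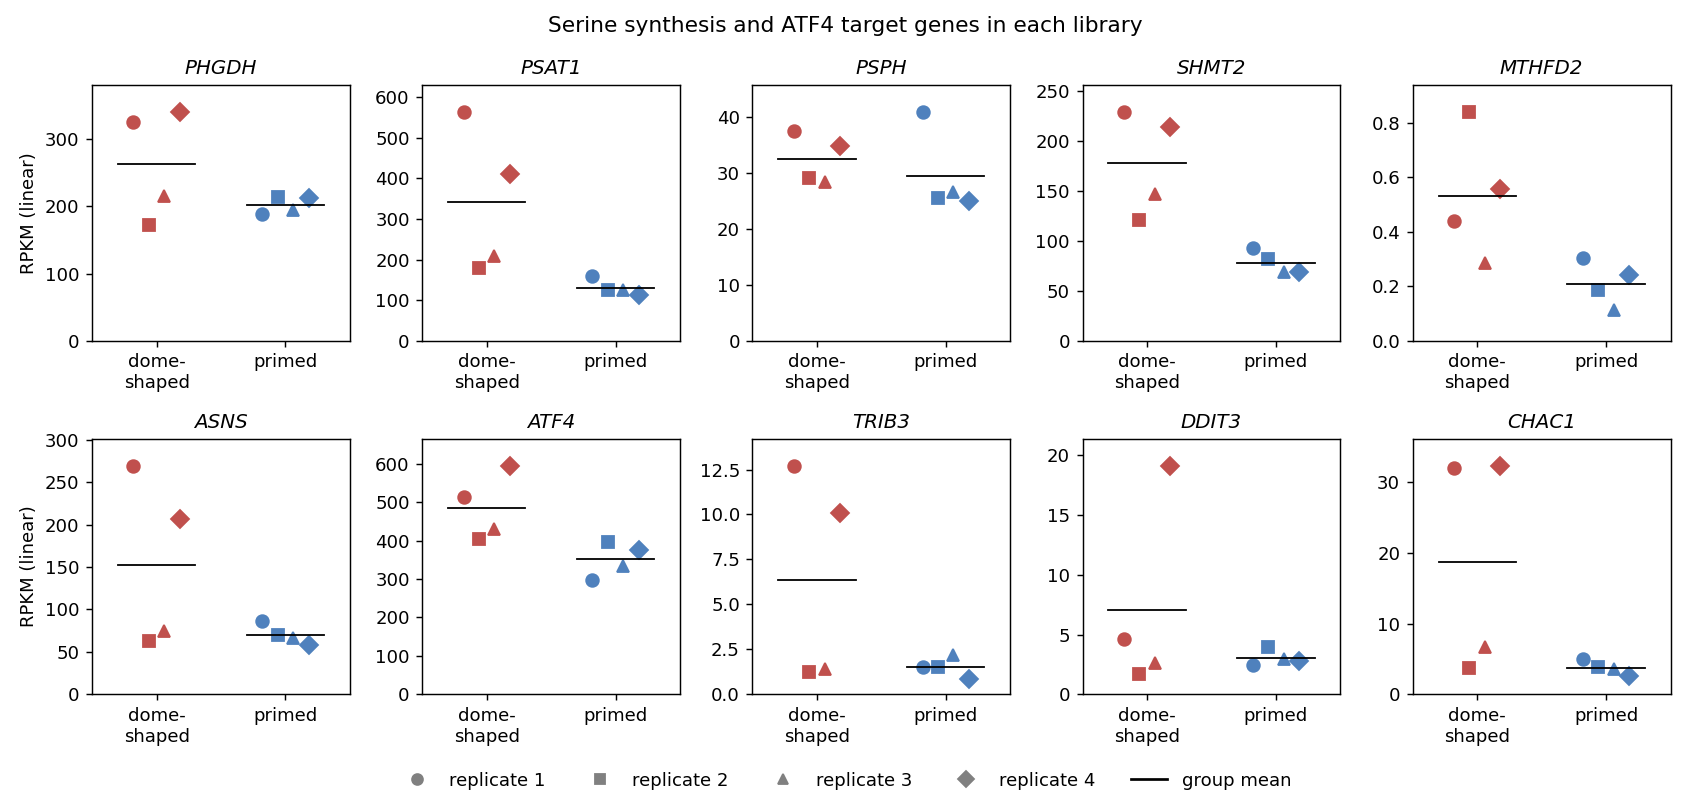
RPKM (vertical axes, linear and from 0) of the 10 genes in the 4 dome-shaped (red, left) and 4 primed libraries (blue, right); the symbol gives the replicate and the black line the group mean. Dome-shaped replicates 1 and 4 (circle and diamond) are the 2 highest dome-shaped libraries in every panel but MTHFD2, whose named row stayed under 1 RPKM.

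SHMT2, the mitochondrial enzyme that turns serine into glycine and loads a one-carbon unit onto folate, was at 229, 121, 147 and 214 RPKM in dome-shaped replicates 1 to 4, against 93.1, 82.4, 68.5 and 68.6 RPKM in primed replicates 1 to 4. The lowest dome-shaped library stood above the highest primed one. SHMT2 averaged 178 ± 52.2 RPKM in dome-shaped ESCs and 78.2 ± 11.95 RPKM in primed ESCs (SD, n = 4 each), a log2 fold change of 1.14 (SE 0.20, limma adjusted p = 0.00908). It remained called in each of the 8 fits that left out 1 library, with log2 fold changes of 1.00 to 1.31, and it was 1.03 without dome-shaped replicate 4 (limma adjusted p = 0.0135).

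MTHFD2, the mitochondrial dehydrogenase and cyclohydrolase that acts on the folate product of SHMT2, had a named row with almost no reads. That row (ENSMMUG00000011383) held 0.439, 0.839, 0.285 and 0.559 RPKM in dome-shaped replicates 1 to 4, against 0.304, 0.185, 0.111 and 0.240 RPKM in primed replicates 1 to 4, or 2 to 12 implied reads in any library. The groups overlapped, and the row did not pass the filter for testing.

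Both of the other rows whose first match carried the name of the MTHFD2 protein and that held more than 1 RPKM were called higher in dome-shaped ESCs, and neither is the row the name points to. Row Novel00322, at 92.7% identity, had 30.4, 17.4, 18.4 and 32.0 RPKM in dome-shaped replicates 1 to 4, against 14.1, 14.8, 14.2 and 9.90 RPKM in primed replicates 1 to 4 (MTHFD2, log2 fold change 0.81, SE 0.22, limma adjusted p = 0.0389). Row ENSMMUG00000009739, at only 53.0% identity, had 72.0, 39.5, 45.1 and 74.6 RPKM in dome-shaped replicates 1 to 4, against 35.1, 34.5, 32.6 and 27.0 RPKM in primed replicates 1 to 4 (MTHFD2, log2 fold change 0.77, SE 0.20, limma adjusted p = 0.0361). In both rows all dome-shaped libraries were above all primed ones, with replicates 1 and 4 highest. These rows were looked at after the named row was seen to be nearly empty, and which of them measures MTHFD2 cannot be settled from the table.

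**Figure D2:**
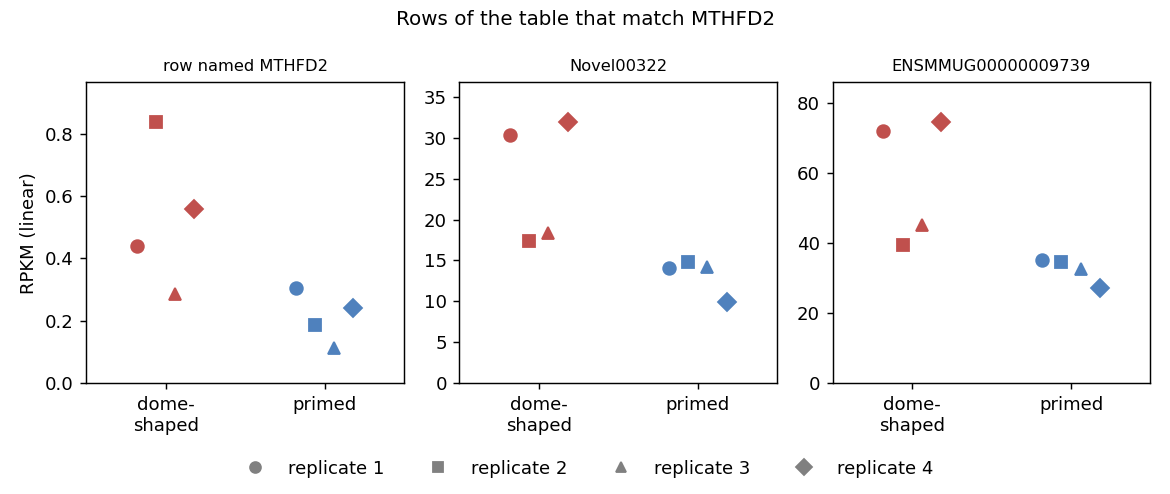
RPKM (vertical axes, linear and from 0) of the row named MTHFD2 and of 2 further rows matched to the MTHFD2 protein, in 4 dome-shaped (red, left) and 4 primed libraries (blue, right). The named row lies under 1 RPKM throughout, while the other rows reach 32.0 and 74.6 RPKM in dome-shaped replicate 4.

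PSAT1, the aminotransferase of serine synthesis, had the highest mean of the 3 serine enzymes in dome-shaped ESCs. Its levels were 563, 180, 210 and 411 RPKM in dome-shaped replicates 1 to 4, against 160, 125, 124 and 113 RPKM in primed replicates 1 to 4. The groups did not overlap, but dome-shaped replicate 2 was only slightly above primed replicate 1. PSAT1 averaged 341 ± 180 RPKM in dome-shaped ESCs and 131 ± 20.3 RPKM in primed ESCs (SD, n = 4 each), a log2 fold change of 1.23 (SE 0.33, limma adjusted p = 0.0373). Leaving out a single library ended the call in 5 of 8 limma fits: dome-shaped replicate 1 (adjusted p = 0.0551) or 4 (0.0675), or primed replicate 2 (0.0884), 3 (0.0829) or 4 (0.0872). The log2 fold change stayed at 0.94 to 1.49 over the 8 fits. Over all genes tested, these fits called 381 to 1289 higher and 655 to 1441 lower, against 995 and 1242 with all libraries. The PSAT1 call was also lost with limma on unfiltered genes (adjusted p = 0.0678) and with no mean trend (0.0504).

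PHGDH, the first enzyme of the pathway, was at 325, 173, 215 and 340 RPKM in dome-shaped replicates 1 to 4, against 189, 214, 194 and 213 RPKM in primed replicates 1 to 4. Replicates 1 and 4 of the dome-shaped group were well above every primed library, replicate 2 was below them all, and replicate 3 was level with the highest of them. The difference of the groups was not called (log2 fold change 0.33, SE 0.20, limma adjusted p = 0.294). PSPH, the last enzyme, was at 37.5, 29.2, 28.5 and 34.9 RPKM in dome-shaped replicates 1 to 4, against 40.9, 25.6, 26.7 and 25.1 RPKM in primed replicates 1 to 4 (log2 fold change 0.15, SE 0.16, limma adjusted p = 0.558). The highest PSPH value of all was that of primed replicate 1, and the groups overlapped. The table holds 3 further rows matched to PSPH, all under 4 RPKM, so reads may be shared between copies.

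ASNS, which makes asparagine from aspartate and glutamine, showed the split within the dome-shaped group most clearly among the abundant members. It was at 269, 62.3, 74.2 and 206 RPKM in dome-shaped replicates 1 to 4, against 86.8, 70, 66.8 and 58.1 RPKM in primed replicates 1 to 4. Dome-shaped replicates 2 and 3 lay within the primed range, and replicates 1 and 4 were more than 2-fold above its top. The highest dome-shaped library exceeded the lowest 4.31-fold, and the difference of the group means was not called (log2 fold change 0.85, SE 0.43, limma adjusted p = 0.210).

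ATF4 was the most abundant of the 10 genes in both groups. It was at 514, 404, 429 and 594 RPKM in dome-shaped replicates 1 to 4, against 298, 397, 334 and 375 RPKM in primed replicates 1 to 4. All dome-shaped libraries were above all primed ones, by a narrow margin between dome-shaped replicate 2 and primed replicate 2. The means were 485 ± 86.4 RPKM in dome-shaped ESCs and 351 ± 44.3 RPKM in primed ESCs (SD, n = 4 each). The log2 fold change of 0.46 (SE 0.14) just missed the threshold (limma adjusted p = 0.0525). An exact two-sided permutation test of this gene gave an unadjusted p = 0.0286, the smallest that 4 against 4 libraries allow. Any gene whose groups do not overlap gets this value, so it only restates that separation.

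CHAC1, an enzyme that breaks down glutathione and a target of ATF4, had the largest log2 fold change of the 9 tested members and was not called. It was at 32.0, 3.78, 6.64 and 32.3 RPKM in dome-shaped replicates 1 to 4, against 4.93, 3.89, 3.63 and 2.61 RPKM in primed replicates 1 to 4. Replicates 1 and 4 of the dome-shaped group were more than 6-fold above every primed library, replicate 3 slightly above and replicate 2 within the primed range. The log2 fold change was 1.59 (SE 0.60, limma adjusted p = 0.106), and CHAC1 was called only in the leave-one-out fit without dome-shaped replicate 2 (log2 fold change 2.11, adjusted p = 0.0419).

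TRIB3, a pseudokinase that restrains ATF4 and AKT signalling, was at 12.7, 1.22, 1.42 and 10.1 RPKM in dome-shaped replicates 1 to 4, against 1.51, 1.53, 2.21 and 0.831 RPKM in primed replicates 1 to 4. Replicates 1 and 4 stood far above all other libraries, and replicates 2 and 3 lay inside the primed range. TRIB3 rested on few reads, an implied 19 to 219 in dome-shaped and 15 to 43 in primed libraries, and was not called (log2 fold change 1.11, SE 0.59, limma adjusted p = 0.229).

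DDIT3, which encodes the stress factor CHOP, was high in 1 library. Its row carries the symbol in the table, while its best protein match is a human EWS entry. It was at 4.63, 1.70, 2.64 and 19.1 RPKM in dome-shaped replicates 1 to 4, against 2.48, 3.94, 2.95 and 2.78 RPKM in primed replicates 1 to 4. Only dome-shaped replicate 4 stood far from the rest, and replicate 1 was slightly above the primed range. The log2 fold change of 0.53 (SE 0.53, limma adjusted p = 0.534) became -0.072 without dome-shaped replicate 4 (adjusted p = 0.870).

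**Figure D3:**
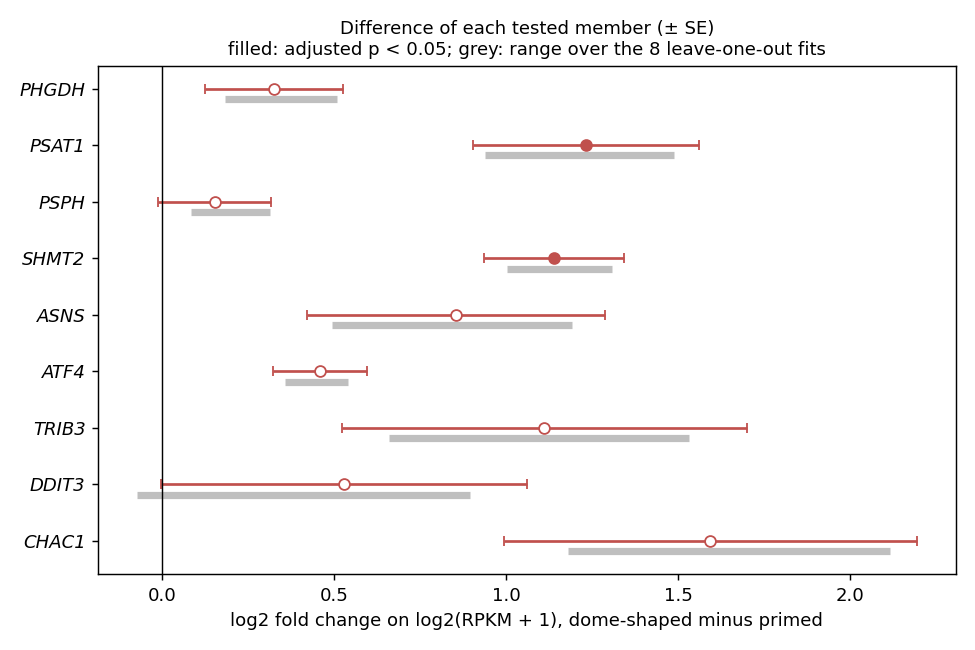
Log2 fold change on log2(RPKM + 1), dome-shaped minus primed (horizontal axis), of the 9 tested members; points with bars are the limma estimate ± SE, filled where the adjusted p was under 0.05, and grey bars span the 8 fits that each leave out 1 library. SHMT2 and PSAT1 are filled, at 1.14 and 1.23, and the grey bar of DDIT3 crosses 0.

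By level, which RPKM give per length, the members ran in dome-shaped ESCs from ATF4 (485 RPKM) over PSAT1 (341), PHGDH (263), SHMT2 (178) and ASNS (153) to PSPH (32.5), CHAC1 (18.7), DDIT3 (7.02) and TRIB3 (6.34 RPKM). In primed ESCs the order was ATF4 (351 RPKM), PHGDH (202), PSAT1 (131), SHMT2 (78.2), ASNS (70.4), PSPH (29.6), CHAC1 (3.77), DDIT3 (3.04) and TRIB3 (1.52 RPKM). Within the dome-shaped group the ranges of neighbours in this order overlapped, apart from ASNS over PSPH. In the primed group they overlapped for SHMT2 with ASNS and for CHAC1 with DDIT3, and not for the other neighbours.

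Dome-shaped replicates 1 and 4 were the 2 highest dome-shaped libraries for all 9 tested members. Over all genes tested, that pair was the highest for 3173 genes, or 20.3%. This count was made after the values were seen, and it is a description of these libraries without a test. The spread within the dome-shaped group was wide for TRIB3 (highest over lowest 10.3-fold), DDIT3 (11.3-fold) and CHAC1 (8.56-fold) and narrow for ATF4 (1.47-fold) and PSPH (1.31-fold). Implied depth was 16060400 and 14411200 reads in replicates 1 and 4 and 14401400 and 17676400 in replicates 2 and 3, so the 2 pairs were interleaved in depth. Replicates 1 and 2 share the label CES1 in their titles and yet fell on opposite sides for all 9 genes. Summed pluripotency markers were 1936 and 2954 RPKM in replicates 1 and 4, on either side of 2020 and 2015 RPKM in replicates 2 and 3. The part of these values in the split was not tested.

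Among other known targets of ATF4, 1 was called. Of 22 such genes 20 were found and 17 tested, and JDP2 was the one called, higher in dome-shaped ESCs. The median log2 fold change of the 17 genes was 0.22. Of the 17, 6 had an unadjusted p under 0.05, higher and lower counted together. Dome-shaped replicates 1 and 4 were the highest pair for 11 of the 17, and for 20.3% of all genes tested. Over all genes tested, limma called 6.38% higher and 7.96% lower. At an unadjusted p under 0.05, 16.2% were higher and 15.4% lower. Over the 5 related lists together, 4 of 71 tested genes were called higher and 1 lower, and 22 had an unadjusted p under 0.05. JDP2, a repressor of AP-1, was at 11.6, 4.68, 7.33 and 6.72 RPKM in dome-shaped replicates 1 to 4, against 4.14, 3.33, 2.21 and 3.71 RPKM in primed replicates 1 to 4 (log2 fold change 0.94, SE 0.25, limma adjusted p = 0.0359). Every dome-shaped library was above every primed one, but the call was lost without dome-shaped replicate 1 or 3 or primed replicate 2, 3 or 4 (limma adjusted p up to 0.0863). The most abundant genes of this list that were not called were XPOT, which exports tRNA (86.7 against 98.8 RPKM on average, dome-shaped against primed), and ALDH18A1, of proline synthesis (70.7 against 79.7 RPKM).

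Several genes of the list, named here after their values were seen, had large gaps between the dome-shaped libraries. The mTORC1 inhibitor gene DDIT4 was at 71.2, 8.93, 11.5 and 64.8 RPKM in dome-shaped replicates 1 to 4, against 7.67, 11.5, 8.23 and 24.0 RPKM in primed replicates 1 to 4 (limma adjusted p = 0.280). SESN2, a leucine sensor of the sestrin family, was at 31.5, 9.52, 14.4 and 28.9 RPKM in dome-shaped replicates, against 10.9, 9.23, 8.34 and 10.4 RPKM in primed ones (limma adjusted p = 0.0984). PCK2, the mitochondrial phosphoenolpyruvate carboxykinase, was at 43.5, 8.67, 11.4 and 31.2 RPKM in dome-shaped replicates, against 12.3, 12.8, 13.7 and 12.9 RPKM in primed ones (limma adjusted p = 0.419). In each of the 3, replicates 1 and 4 were above all primed libraries while replicate 2 or replicates 2 and 3 were not.

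**Figure D4:**
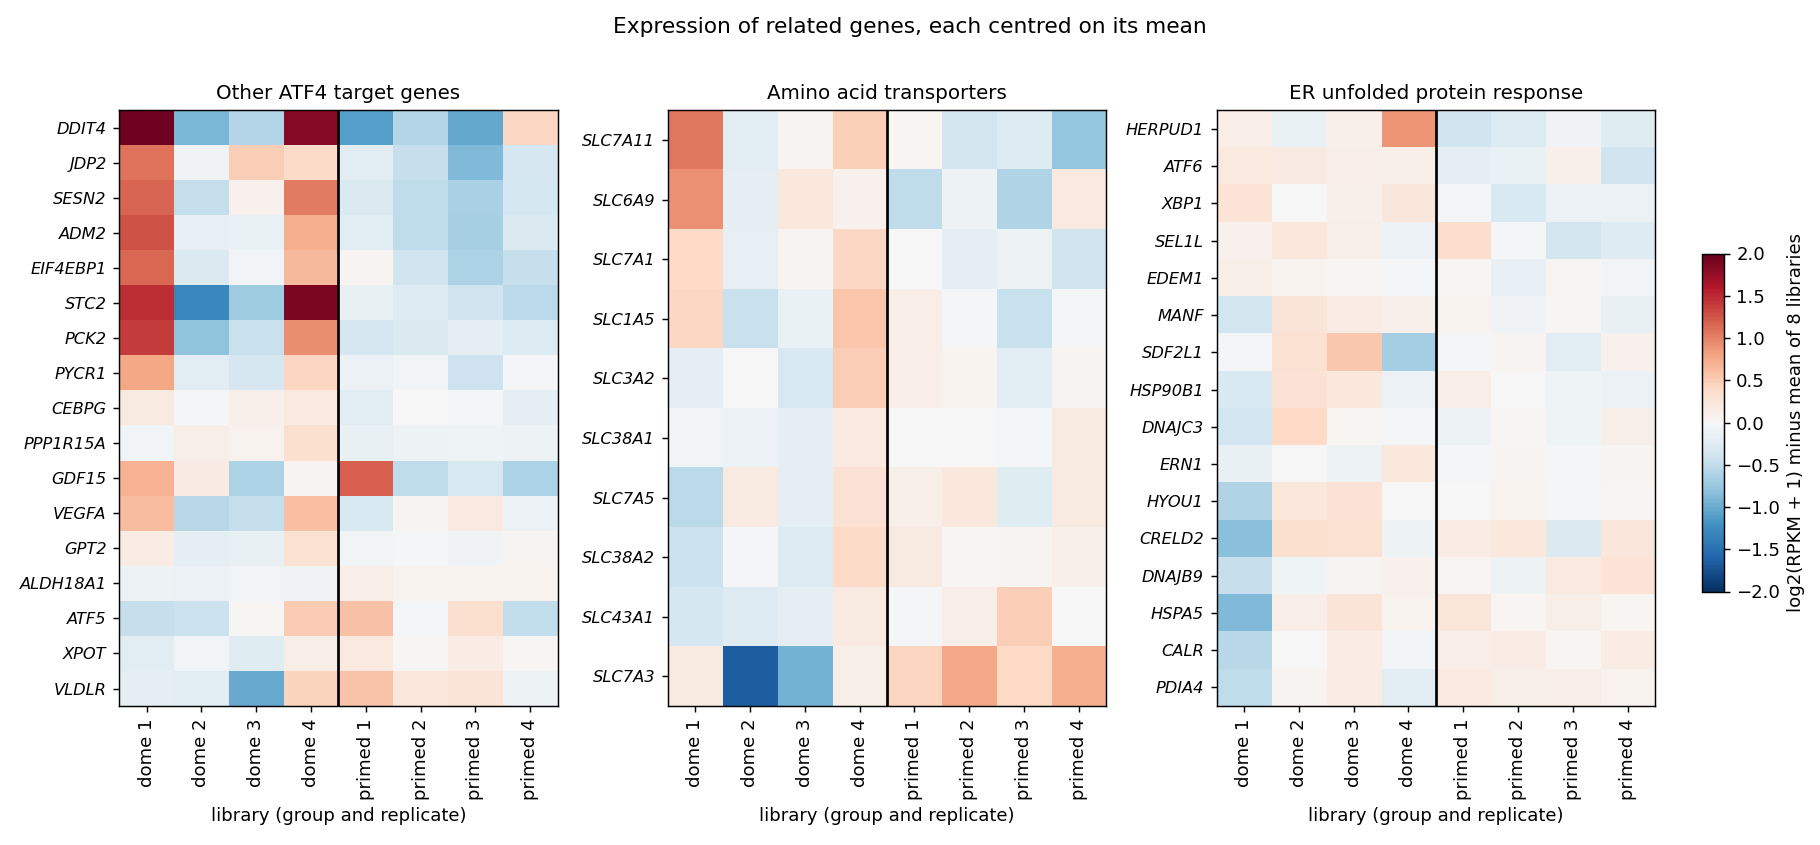
Log2(RPKM + 1) of each tested gene minus its mean over the 8 libraries (colour, red above and blue below the mean), for 17 other ATF4 targets, 10 amino acid transporters and 16 genes of the ER unfolded protein response; columns are the dome-shaped libraries, left of the black line, and the primed libraries. DDIT4, STC2 and PCK2 are red in dome-shaped replicates 1 and 4 and blue in 2 and 3, whereas HSPA5 is blue in replicate 1.

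Amino acid transporters that ATF4 is known to regulate were not called in either direction. Of 11 genes 10 were found and tested; none was called by limma, and 3 had an unadjusted p under 0.05 (median log2 fold change -0.05). The most abundant were SLC3A2 and SLC7A5, the heavy and light chains of a transporter of large neutral amino acids. SLC3A2 was at 148, 169, 135 and 238 RPKM in dome-shaped replicates 1 to 4, against 186, 179, 146 and 176 RPKM in primed replicates 1 to 4, and SLC7A5 averaged 164 against 176 RPKM. Both ranges overlapped. Replicates 1 and 4 were the highest dome-shaped pair for 5 of the 10 transporters, and for 20.3% of all genes tested. Among all genes tested, limma called 6.38% higher and 7.96% lower. At an unadjusted p under 0.05, 16.2% were higher and 15.4% lower.

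Among the other enzymes of serine, glycine and folate metabolism, TYMS was called. Of 19 genes 16 were found and 13 tested; 1 was called higher and none lower (median log2 fold change 0.04; 4 at an unadjusted p under 0.05). TYMS, the thymidylate synthase that consumes a one-carbon unit, was at 247, 191, 236 and 185 RPKM in dome-shaped replicates 1 to 4, against 163, 148, 184 and 139 RPKM in primed replicates 1 to 4 (log2 fold change 0.43, SE 0.12, limma adjusted p = 0.0450). The margin between the groups was small, and of the 8 limma fits without 1 library the call held only without dome-shaped replicate 4 or primed replicate 3 (adjusted p up to 0.117). The most abundant not called were MAT2A, which makes S-adenosylmethionine (227 against 253 RPKM on average), and GCSH, of the glycine cleavage system (218 against 197 RPKM). The top pair was replicates 1 and 4 for 3 of the 13 genes, and for 20.3% of all genes tested. Among all genes tested, limma called 6.38% higher and 7.96% lower. At an unadjusted p under 0.05, 16.2% were higher and 15.4% lower.

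Among 15 genes upstream of ATF4, the kinases and regulators of eIF2α and the subunits of its exchange factor eIF2B, 2 were called higher and 1 lower (median log2 fold change -0.10; 6 at an unadjusted p under 0.05). These counts stand beside 6.38% of all genes tested called higher by limma and 7.96% called lower. At an unadjusted p under 0.05 the shares were 16.2% higher and 15.4% lower. EIF2AK4, the kinase GCN2 that senses uncharged tRNA, was the one called lower. It was at 23.3, 19.3, 17.8 and 31.4 RPKM in dome-shaped replicates 1 to 4, against 50.2, 45.4, 31.8 and 44.4 RPKM in primed replicates 1 to 4 (log2 fold change -0.89, SE 0.19, limma adjusted p = 0.0174). The groups did not overlap, and the highest dome-shaped library lay just under the lowest primed one. The call of EIF2AK4 was lost without dome-shaped replicate 2 or primed replicate 2 (limma adjusted p up to 0.0537). The table splits EIF2AK4 over several rows, and both other rows with its protein name were lower too (EIF2AK4, log2 fold changes -0.79 and -0.82, limma adjusted p = 0.0492 and 0.0159).

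EIF2B1 and EIF2B3, subunits of eIF2B, were higher by log2 fold changes of 0.33 (SE 0.09, limma adjusted p = 0.0360) and 0.25 (SE 0.07, adjusted p = 0.0416). EIF2B1 was at 48.6, 59.2, 55.1 and 51.1 RPKM in dome-shaped replicates 1 to 4, against 39.5, 44.9, 40.1 and 44.9 RPKM in primed replicates 1 to 4. Of the 8 limma fits without 1 library, the EIF2B1 call held only without dome-shaped replicate 1 or 4, and the EIF2B3 call in none (adjusted p 0.0628 to 0.114). The other eIF2α kinase genes were not called. EIF2AK1, the most abundant of them, averaged 48.4 against 54.5 RPKM, and EIF2S1, which encodes eIF2α itself, averaged 50.5 against 45.9 RPKM. EIF2AK3 was at 3.99 to 4.86 RPKM in dome-shaped and 5.05 to 7.16 RPKM in primed libraries (limma adjusted p = 0.125). Of the 15 genes, 4 (EIF2AK4, EIF2AK3, GCN1 and DELE1) had all dome-shaped libraries below all primed ones and 2 had them above, against 10.7% and 11.5% of all genes tested. GCN1 and DELE1 were not called (limma adjusted p = 0.0884 and 0.0715).

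Genes of the ER unfolded protein response, a second route to ATF4 through the kinase PERK, had no calls. All 16 were found and tested; none was called by limma in either direction, 3 had an unadjusted p under 0.05, and the median log2 fold change was 0.03. Among all genes tested, limma called 6.38% higher and 7.96% lower. At an unadjusted p under 0.05, 16.2% were higher and 15.4% lower. Dome-shaped replicates 1 and 4 were the top pair for 2 of the 16 genes of the list, and for 20.3% of all genes tested. The summed level of the 16 genes was 1578, 2426, 2526 and 2167 RPKM in dome-shaped replicates 1 to 4, against 2444, 2305, 2226 and 2255 RPKM in primed replicates 1 to 4. Dome-shaped replicate 1, with the highest ASNS and PSAT1 of all libraries, had the lowest sum of these genes. HSPA5, HSP90B1 and CALR, at 224, 405 and 485 RPKM there, carried most of it. XBP1, ATF6 and EDEM1 went the other way, at 55.6, 15.3 and 6.94 RPKM in that library, each its highest of all 8. For XBP1 and ATF6, 2 of the 16 genes, the groups did not overlap, dome-shaped higher, as for 11.5% of all genes tested. No gene of the list was apart in the other direction. The chaperones CALR (669 against 778 RPKM on average) and HSP90B1 (513 against 492 RPKM) were the most abundant and were not called.

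The tested genes with a symbol whose pattern over the 8 libraries was most like that of a member were sought. The measure was the root mean square difference of log2(RPKM + 1), each gene first centred on its mean. Only 52.3% of the genes tested had a symbol, and the others could not be found as neighbours. For ASNS the nearest were PCK2 (0.23), INHBE (0.24) and SESN2 (0.25), where ASNS itself varied by 0.78 about its mean. For TRIB3 the nearest were ASNS (0.32), CHAC1 (0.34) and INHBE (0.37), against its own 1.04. For PHGDH they were GEM (0.12), the alanyl-tRNA synthetase gene AARS1 (0.13) and C12ORF76 (0.13), against 0.34. GEM was at only 1.22 to 3.57 RPKM and C12ORF76 at 3.68 to 7.52 RPKM. At such levels log2(RPKM + 1) understates changes, so their likeness to the abundant PHGDH partly reflects the scale. For DDIT3 the nearest genes, NFKBIZ (0.41), DUSP10 (0.43) and NFIB (0.45), were less close relative to its own 0.84. INHBE, which encodes an inhibin subunit, was at 12.7, 1.08, 2.38 and 9.42 RPKM in dome-shaped replicates 1 to 4, against 2.77, 1.52, 1.44 and 2.04 RPKM in primed replicates 1 to 4.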

How the data were processed

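Polyadenylated RNA of 4 dome-shaped and 4 primed ESC samples was sequenced on an Illumina instrument after random-primed cDNA synthesis, per the labels' protocols; no strand-specific step is recorded, so reads of overlapping and antisense genes cannot be told apart. Tools used were HTSeq 0.6.1, TopHat2 2.0.9 and Bowtie2 2.0.6, per the submitters' processing notes, which give no order. The build and annotation behind the values were not given in the sources used here. Per gene, the authors deposited RPKM values in 1 table, with the query length and protein matches, and 17 blank rows were left out. The columns of dome-shaped replicates 1, 2 and 3 lacked the end of their titles and were assigned by the part present, which no other unassigned title shares. Library depth came from RPKM × query length, which fell in whole steps within 0.01 of a read for 71.5% to 73.5% of values under 50 reads; this is not nearly all, so no count test was run.

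Rows got the table's symbol (4302), else that of a RefSeq protein in NCBI's annotation of this monkey (assembly T2T-MFA8v1.1) (7343 rows) or a protein name paired by hand (51 rows), at 85% identity or more; the row with the table's symbol, else the highest mean, stood for a gene. Of the genes tested, 52.3% had a symbol. Values were compared as log2(RPKM + 1), dome-shaped minus primed, by limma 3.58.1 in R 4.3.3 (mean trend, two-sided, no covariates, Benjamini-Hochberg over all genes tested), which understates changes of low genes. limma was tested on simulated data. Members and the 5 related and 6 marker lists were chosen with earlier results of these data known. Named by rule were all members, all called genes of a related list (at most 6) with its 2 most abundant others, and the 3 nearest genes of 4 members. Further genes were named outside this rule, among them EIF2AK3, GCN1, DELE1, HSPA5, XBP1, ATF6 and EDEM1. Promoter sequences were not analysed here. Replicate numbers only name libraries.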

Additional observations from a re-analysis of the deposited data

Results flagged for a closer look

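In 20 sets of 4 libraries (10 genes in each group), 2 held a library far from the others, where chance gives about 5% of sets. DDIT3 in dome-shaped replicate 4 stood at 19.1 RPKM, against 1.70 to 4.63 RPKM in the other dome-shaped libraries. PSPH in primed replicate 1 stood at 40.9 RPKM, against 25.1 to 26.7 RPKM in the other primed libraries.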

How the results depend on the processing

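SHMT2 kept its direction and its call under all 18 alternatives. PSAT1 kept its direction under all 18 and its call under 10. For both genes, 2 of the alternatives counted as kept could not have ended the call. Summed rows repeat the main fit, as each gene had 1 matched row. The unadjusted permutation test gives p = 0.0286 to any gene whose groups do not overlap. The 2 members called became 1 on unfiltered genes, 1 with no mean trend and 1 with a replicate block on the CES number, and 1 to 3 over the fits without 1 library. The 5 related genes called became 3 unfiltered, 2 with no trend and 0 with limma and the replicate block (16 at an unadjusted p under 0.05), and 0 to 5 without 1 library, 0 being without primed replicate 2 (15 at an unadjusted p under 0.05). The log2 fold change of DDIT3 ran from -0.072 without dome-shaped replicate 4, a reversal, to 0.89 without dome-shaped replicate 2. ATF4 passed 0.05 only by the exact permutation test, unadjusted (p = 0.0286), which restates that its groups did not overlap. Over all genes the block called 303 higher and 593 lower, against 995 and 1242. The fits without 1 library called 381 to 1289 higher and 655 to 1441 lower over all genes, both lowest without primed replicate 2. Averaged within each group, libraries with the same number did not deviate together (correlations 0.005, -0.015 and -0.092), and the labels do not say what the number marks. Because of the averaging, CES3_12N and CES3_12P were not compared on their own, nor were CES1_P15N and CES1_P26N each with CES_1Pr. PSAT1 had an adjusted p of 0.0972 under the block. Pseudocounts of 0.1 and 0.5, quantile normalization, median-of-ratios scaling, a mean of at least 5 RPKM and summed rows changed no tested member's call; TRIB3 does not reach that mean. The cause of the changes was not tested. MTHFD2's named row (2 to 12 reads) and TRIB3 limit what depth can show.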

Other observations

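The 2 serine enzymes PSAT1 and PHGDH stood in a different proportion in the groups. The ratio of PSAT1 to PHGDH RPKM was 1.73, 1.04, 0.975 and 1.21 in dome-shaped replicates 1 to 4, against 0.848, 0.584, 0.643 and 0.532 in primed replicates 1 to 4. All dome-shaped libraries were above all primed ones. The ratio was taken after the values were seen and was not tested.

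SLC7A3, a transporter of arginine and lysine, had lower values in all dome-shaped libraries than in any primed one, 70.9, 19.4, 32.2 and 67.9 RPKM in replicates 1 to 4, against 84.8, 107, 82.9 and 103 RPKM in primed replicates 1 to 4, and was not called (log2 fold change -1.15, SE 0.36, limma adjusted p = 0.0645). SLC7A11, the cystine transporter that supplies glutathione synthesis, was at 32.6, 13.1, 15.8 and 21.7 RPKM in dome-shaped replicates, against 15.7, 11.6, 12.4 and 8.48 RPKM in primed ones (log2 fold change 0.69, SE 0.27, limma adjusted p = 0.117). Within the dome-shaped group both transporters had replicates 1 and 4 highest, although their group means differed in opposite directions. Both were named after their values were seen.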
